A study of Mus musculus with 11 samples.

Results

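Leukaemia inhibitory factor (Lif) and 5 genes of its signalling chain were followed through B16F10, a mouse melanoma line, under inhibition of the checkpoint kinase ATR. The genes were Lif itself, the receptor subunits Lifr, Il6st and Osmr, the transcription factor Stat3 and the feedback inhibitor Socs3. They were taken by symbol from a table of 14528 listed genes, and all 6 were found. Lif was chosen by its measured FPKM: an earlier look at these data had listed its rise with the inhibitor in 1 knockout clone, ΔUNG_2. The other 5 were added as its known pathway. The ATRi response in ΔUNG_2 is therefore given here as values with no test, and Lif is tested only between libraries of the other lines.

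RNA was sequenced from 11 libraries of 3 lines: a Cas9 control line labelled as wild type, and the Ung knockout clones ΔUNG and ΔUNG_2, each a single clone. Cells of each line received DMSO, the solvent, or 5 µM AZD6738, an ATR inhibitor called ATRi here, for 48 h. Each line and treatment had 2 libraries, except ΔUNG_2 with ATRi, which had 1. The labels call the libraries biological replicates without saying whether they came from separate cultures, so the spread behind the p-values is that of these libraries alone and may be technical.

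LIF is a secreted cytokine of the interleukin-6 family. It binds the LIF receptor, which then pairs with gp130, the signal transducer encoded by Il6st, and Janus kinases held on both receptor tails phosphorylate STAT3. STAT3 moves to the nucleus and switches on target genes, among them Socs3, whose protein binds gp130 and its kinases and damps the signal. OSMR is the partner of gp130 in the receptor for oncostatin M, a close relative of LIF, and LIF is best known for keeping mouse embryonic stem cells undifferentiated.

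Libraries held 15980684 to 26861794 fragments in listed genes, and the deepest were both Cas9 control libraries with ATRi. Ung transcripts stood at 2.48 to 2.999 FPKM in the Cas9 control, 0.675 to 1.39 in ΔUNG and 1.74 to 2.01 in ΔUNG_2, so they were lower in both clones and not absent; FPKM counts fragments per kilobase of gene and per size of the library. All 7 melanocytic markers were present (summed level 7220 to 9611 FPKM over the libraries). Of markers of other cells, 3 of 5 fibroblast genes were listed and summed to at most 1.27 FPKM. Of 3 endothelial and 3 keratinocyte markers, 1 each was listed. Pecam1 reached 0.152 FPKM and Krt5 was at 0 in 8 of 11 libraries. Of 6 leukocyte markers, only the macrophage marker Cd68 was among the listed genes. It was at 2.11 to 4.52 FPKM with DMSO and 8.70 to 12.0 with ATRi. The higher level ran beside the changes with ATRi below, and its part in them was not tested.

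The stretches before the start sites of Lif, Il11 and Socs3 are shown because Lif and its relative Il11 rose together and Socs3 is the textbook STAT3 target. They come from RefSeq (GRCm38.p6), run 5′ to 3′ on the gene's strand and leave out exon bases. Capitals mark a match to TGANTCA, the site bound by AP-1 (the dimer of FOS and JUN proteins), or to TTCNNNGAA, the site bound by STAT proteins.
Lif, chr11:4257318-4257556, plus strand: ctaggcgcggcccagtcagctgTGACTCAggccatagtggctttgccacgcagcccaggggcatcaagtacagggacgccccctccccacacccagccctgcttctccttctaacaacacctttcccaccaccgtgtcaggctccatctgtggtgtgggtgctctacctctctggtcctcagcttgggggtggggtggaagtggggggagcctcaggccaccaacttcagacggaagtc
Il11, 1 of its annotated start sites, chr7:4778142-4778391, minus strand: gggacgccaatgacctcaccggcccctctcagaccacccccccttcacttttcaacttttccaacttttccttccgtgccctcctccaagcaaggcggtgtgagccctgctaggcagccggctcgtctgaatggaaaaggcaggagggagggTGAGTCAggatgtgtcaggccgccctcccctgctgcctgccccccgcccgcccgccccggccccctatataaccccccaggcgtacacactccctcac
Socs3, chr11:117969452-117969616, minus strand: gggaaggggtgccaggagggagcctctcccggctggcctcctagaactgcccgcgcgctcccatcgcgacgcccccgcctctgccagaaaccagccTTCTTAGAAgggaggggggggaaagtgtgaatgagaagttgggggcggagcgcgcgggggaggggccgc
Counted from the start site, with minus for bases before it, the matches lie at −228 to −222 in Lif, −98 to −92 in Il11 and −154 to −146 in Socs3. The other listed start site of Il11 (window chr7:4782858-4783107) held no match to the motifs searched. Both strands of the 250 bases before each start were searched for these motifs and for TTCCNGGAA, a stricter form of the STAT motif, and TGACGTCA, the cyclic AMP response element. Over 32851 promoters, TGANTCA was found in 6.75%, TTCNNNGAA in 7.02%, TTCCNGGAA in 0.913% and TGACGTCA in 1.55%. No motif of the 4 was found in these windows of Lifr, Il6st, Osmr or Stat3, and the search was made with the expression values known, so the matches are descriptions only.

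Lif transcripts were scarce with DMSO and higher with ATRi in every line. Its gene lies on chromosome 11 (4257557 to 4272514, plus strand, GRCm38 as GENCODE M21 places it). With DMSO, Lif was at 0.351 and 0.475 FPKM in the Cas9 control, 0.259 and 0.419 in ΔUNG, and 0.216 and 0.0619 in ΔUNG_2. These values rest on 5 to 38 fragments a library. With ATRi, Lif was at 3.99 and 4.58 FPKM in the Cas9 control, 4.30 and 4.35 in ΔUNG and 6.22 in ΔUNG_2, from 378 to 545 fragments. The lowest ATRi library stood above the highest DMSO library by more than the whole spread within either treatment. No groups of the 2 treatments overlapped. How many of all genes separate by treatment or line in this way was not counted. Statements on overlap, here and for the genes below, are therefore descriptions only.

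Lif rose 10.4-fold by the ratio of mean FPKM in the Cas9 control (log2 fold change 2.39 ± 0.17 SE on the log2(FPKM + 0.5) scale, which understates changes of low genes; limma, adjusted p = 1.75e-05). It rose 12.8-fold in ΔUNG (2.53 ± 0.17, adjusted p = 1.25e-05). In ΔUNG_2 the ratio of the single ATRi library to the mean with DMSO was 44.7, with a range of 28.7 to 100 over the 2 DMSO libraries, the lower of which held only 5 Lif fragments. Ordered by log2 fold change, Lif ranked 17 of 11323 genes in the Cas9 control, 12 in ΔUNG and 3 in ΔUNG_2; the last rank is the pattern that chose it. Lif passed the filter of a mean of 0.5 FPKM only through its ATRi libraries, since every DMSO value was below it.

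**Figure D1:**
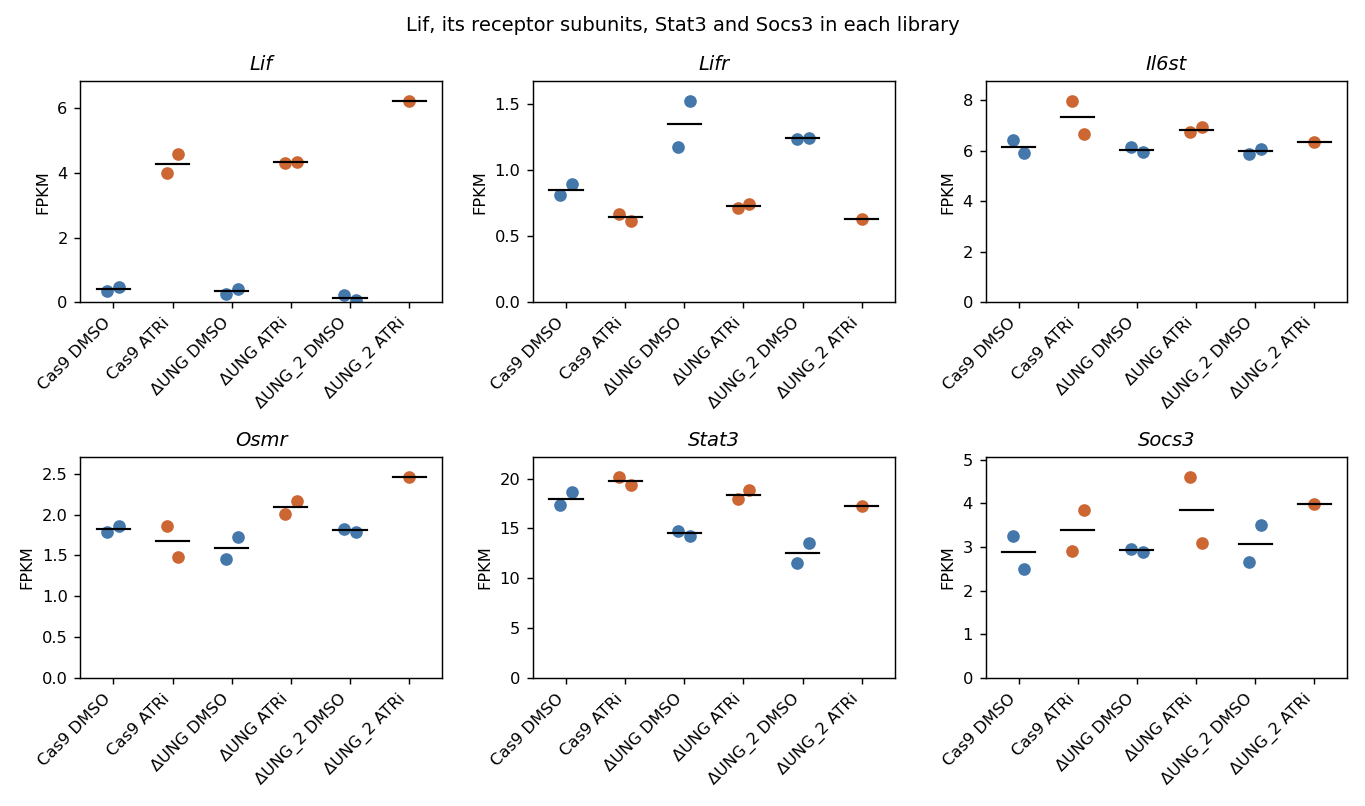
FPKM of each of the 6 genes (y axis, each panel with its own scale from 0) in every library, by line and treatment (x axis); points are libraries, blue for DMSO and orange for ATRi, and bars are group means of 2 libraries (1 for ΔUNG_2 with ATRi). Lif lies at 0.475 FPKM or below in all DMSO libraries and at 3.99 or above in all ATRi libraries, while the ranges of Socs3 with DMSO (2.50 to 3.50) and ATRi (2.90 to 4.61) overlap.

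No difference in Lif between ΔUNG and the Cas9 control passed the test. ΔUNG differed from the Cas9 control by −0.13 ± 0.17 with DMSO (95% interval −0.51 to 0.26, adjusted p = 0.705) and by 0.01 ± 0.17 with ATRi (−0.37 to 0.40, adjusted p = 0.972). The ATRi response of Lif in ΔUNG minus that in the Cas9 control was 0.14 ± 0.24 (−0.40 to 0.68, adjusted p = 0.833). By group mean, Lif ran from ΔUNG_2 with DMSO (0.139 FPKM) through ΔUNG (0.339) and the Cas9 control (0.413) with DMSO to the Cas9 control (4.28), ΔUNG (4.32) and ΔUNG_2 (6.22) with ATRi. The libraries of the Cas9 control and ΔUNG overlapped at both treatments, and those of ΔUNG_2 lay outside both, below them with DMSO and above with ATRi.

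Of the receptor subunits, Lifr was the 1 whose transcript was lower with ATRi in all 3 lines, and the decrease passed the test only in ΔUNG. Lifr (chromosome 15, 7090614 to 7197489, plus strand) was at 0.811 and 0.893 FPKM with DMSO in the Cas9 control, 1.18 and 1.52 in ΔUNG, and 1.24 in both ΔUNG_2 libraries. With ATRi it was at 0.672 and 0.617 FPKM in the Cas9 control, 0.717 and 0.744 in ΔUNG and 0.628 in ΔUNG_2. Every ATRi library was below every DMSO library, and with DMSO the clones stood above the Cas9 control without overlap. The share of all genes that separate in these ways was not counted.

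The change of Lifr with ATRi was −0.58 ± 0.15 in ΔUNG (limma, adjusted p = 0.0166), a level 0.541 of that with DMSO. It was −0.24 ± 0.15 in the Cas9 control (adjusted p = 0.261) and −0.63, untested, in ΔUNG_2. The difference between the responses of ΔUNG and the Cas9 control was −0.34 ± 0.22 (95% interval −0.83 to 0.15, adjusted p = 0.531). The call in ΔUNG was lost without its DMSO replicate 2 (−0.45, adjusted p = 0.106), its ATRi replicate 1 (adjusted p = 0.0626) or its ATRi replicate 2 (0.0564), with only the groups compared (0.0576), and on rescaling to the same FPKM sum (0.0582). Under DMSO, Lifr in ΔUNG was 1.58 times its level in the Cas9 control (0.45 ± 0.15, adjusted p = 0.112) and in ΔUNG_2 1.46 times (0.37 ± 0.15, adjusted p = 0.198); neither passed the test, the former doing so with limma-voom on fragments (adjusted p = 0.0374).

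Il6st, which encodes gp130 (chromosome 13, 112464070 to 112510086, plus strand), was the highest of the 3 receptor subunits per gene length in every library. It was at 6.42 and 5.91 FPKM with DMSO in the Cas9 control, 6.16 and 5.95 in ΔUNG, and 5.88 and 6.09 in ΔUNG_2. With ATRi it was at 7.97 and 6.68 in the Cas9 control, 6.75 and 6.94 in ΔUNG and 6.36 in ΔUNG_2. ATRi and DMSO libraries of the same line did not overlap, which is a description only. No change passed the limma test: 0.23 ± 0.10 in the Cas9 control (adjusted p = 0.0932) and 0.17 ± 0.10 in ΔUNG (adjusted p = 0.208). In the Cas9 control it passed without ATRi replicate 2 (0.35, adjusted p = 0.0336) and with limma-voom (adjusted p = 0.0457).

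Osmr (chromosome 15, 6813577 to 6874969, minus strand) lies 215645 bases from Lifr and, unlike it, was higher with ATRi in the clones. With DMSO, Osmr was at 1.79 and 1.85 FPKM in the Cas9 control, 1.45 and 1.72 in ΔUNG, and 1.83 and 1.79 in ΔUNG_2. With ATRi it was at 1.86 and 1.49 in the Cas9 control, 2.01 and 2.17 in ΔUNG and 2.46 in ΔUNG_2. Treatments overlapped in the Cas9 control and not in the clones, which is a description only. The change with ATRi was −0.10 ± 0.13 in the Cas9 control (adjusted p = 0.593) and 0.31 ± 0.13 in ΔUNG (adjusted p = 0.0920; 0.0351 with limma-voom). The difference between these responses was 0.42 ± 0.19 (95% interval −0.00426 to 0.83, adjusted p = 0.374).

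The ratios between the receptor transcripts separated the treatments. The ratio of Il6st to Lifr, both in FPKM, was 3.91 to 7.92 over the DMSO libraries and 9.33 to 11.9 over the ATRi libraries. The ratio of Osmr to Lifr was 1.13 to 2.21 with DMSO and 2.41 to 3.91 with ATRi. Lif itself was below Lifr in every DMSO library (ratio 0.0497 to 0.532) and above it in every ATRi library (5.84 to 9.89). These ranges did not overlap between treatments and are descriptions, since they include Lif and the ΔUNG_2 library with ATRi. In bulk RNA, fewer cells carrying a transcript and less of it per cell cannot be told apart.

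Stat3 (chromosome 11, 100885098 to 100939540, minus strand) was the most abundant of the 6 genes per length and the 1 with a difference between a clone and the Cas9 control that passed the test. It was at 17.3 and 18.6 FPKM in the Cas9 control with DMSO, 14.8 and 14.2 in ΔUNG, and 11.5 and 13.5 in ΔUNG_2. With ATRi it was at 20.2 and 19.4 FPKM in the Cas9 control, 17.9 and 18.8 in ΔUNG and 17.2 in ΔUNG_2. Within each line the ATRi libraries stood above the DMSO libraries without overlap. The share of all genes that do so was not counted, so this is a description only.

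With DMSO, Stat3 was lower in ΔUNG_2 than in the Cas9 control by a ratio of 0.696 (−0.51 ± 0.08, limma, adjusted p = 0.00663). Leaving out replicate 2 of the Cas9 control with DMSO (−0.46, adjusted p = 0.0602) or replicate 1 of ΔUNG_2 with DMSO (−0.40, 0.0618) ended this call. In ΔUNG the ratio was 0.807 (−0.30 ± 0.08, adjusted p = 0.0590), which passed only with rescaling by median ratios (0.0482) and limma-voom (0.0105). ATRi raised Stat3 in ΔUNG (0.33 ± 0.08, adjusted p = 0.0138), and the change in the Cas9 control was 0.13 ± 0.08 (adjusted p = 0.249). The rise in ΔUNG was lost on rescaling to the same FPKM sum (adjusted p = 0.222), without its DMSO replicate 2 (0.0673) and without its ATRi replicate 2 (0.0789). The 2 responses differed by 0.20 ± 0.12 (95% interval −0.07 to 0.46, adjusted p = 0.508), and with ATRi ΔUNG was at 0.929 of the Cas9 control (adjusted p = 0.522).

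Socs3 (chromosome 11, 117966079 to 117970047, minus strand), whose promoter stretch is printed above, showed no change with ATRi or with line that passed the test. With DMSO it was at 3.25 and 2.50 FPKM in the Cas9 control, 2.96 and 2.89 in ΔUNG, and 2.65 and 3.50 in ΔUNG_2. With ATRi it was at 2.90 and 3.85 in the Cas9 control, 4.61 and 3.09 in ΔUNG and 3.97 in ΔUNG_2. Replicates stood apart in most groups. The treatments overlapped in the Cas9 control and not in the clones, which is a description only. The change with ATRi was 0.20 ± 0.20 in the Cas9 control (95% interval −0.25 to 0.65, adjusted p = 0.480) and 0.32 ± 0.20 in ΔUNG (−0.13 to 0.77, adjusted p = 0.240). These intervals leave room for a rise of up to 0.77 on the log2 scale and lie below the rise of Lif.

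**Figure D2:**
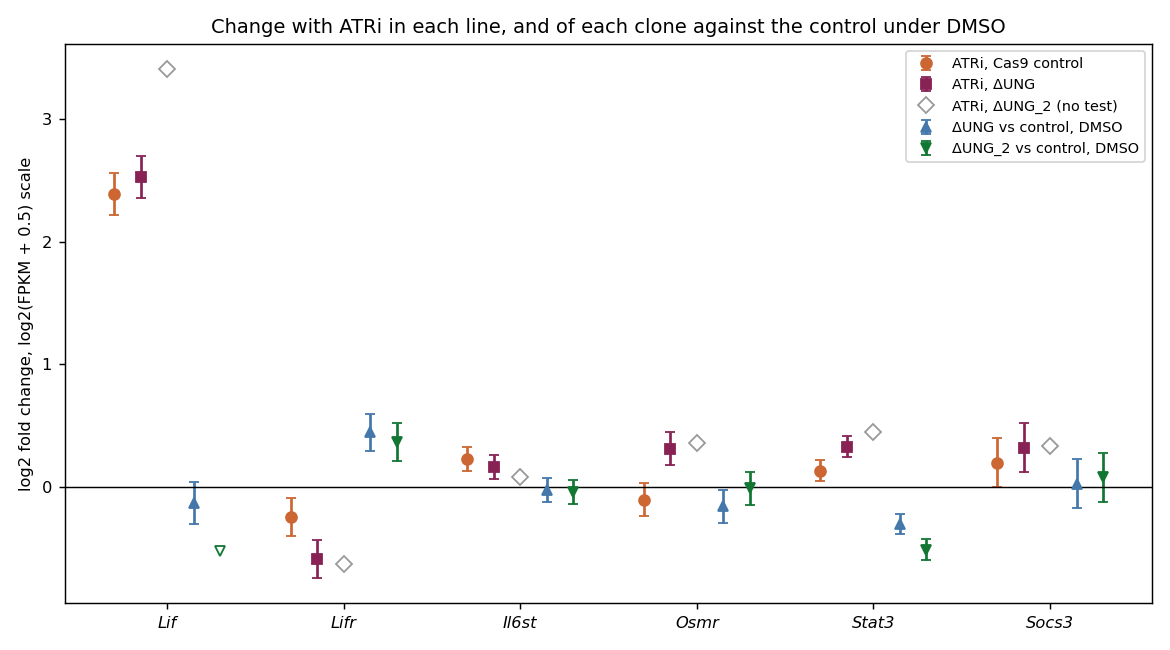
Change of the 6 genes (x axis) on the log2(FPKM + 0.5) scale (y axis): ATRi against DMSO in the Cas9 control, ΔUNG and ΔUNG_2, and each clone against the Cas9 control with DMSO. Filled points carry bars of ± 1 SE from limma and open points had no test; Lif stands at 2.39 and 2.53 in the tested lines at 3.40 in ΔUNG_2, and the other 5 genes lie between −0.63 and 0.45 throughout.

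Counted over the 6 genes, 1 changed with ATRi in the Cas9 control (Lif, higher), where 33.6% of 11323 genes passed the test. In ΔUNG 3 changed (Lif and Stat3 higher, Lifr lower), against 35.8% of all genes, and counts over 6 genes say little beside such shares. Lif was chosen by its rise with ATRi in ΔUNG_2 and passed the filter only through its ATRi libraries. Its calls in these counts are therefore no support. Apart from Lif, no gene of the 6 was called in the Cas9 control, and Stat3 and Lifr were called in ΔUNG. With DMSO, 0 of 6 changed between ΔUNG and the Cas9 control by limma (8.72% of all genes, 5.47% higher and 3.25% lower; 2 at an unadjusted p under 0.05 and 2 by limma-voom), and 1 of 5 was lower in ΔUNG_2 (8.20%, of which 4.47% higher and 3.73% lower). With ATRi, 0 of 6 differed between ΔUNG and the Cas9 control (6.14%, 3.01% higher and 3.13% lower), and 0 of 6 differed in their response (0.0177%); both counts were also 0 at an unadjusted p under 0.05 and by limma-voom. The comparisons of ATRi with DMSO within a line and of the lines with DMSO share libraries.

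With every library rescaled to 1 common FPKM sum, the median of all genes against the Cas9 control was −0.11 for ΔUNG and −0.13 for ΔUNG_2 with DMSO, and −0.11 for ΔUNG with ATRi. Without rescaling these medians were about 0, −0.0059 and −0.015. The split of all genes called then went from 619 higher and 368 lower to 138 and 189 in ΔUNG with DMSO, from 506 and 422 to 114 and 267 in ΔUNG_2, and from 341 and 354 to 73 and 211 in ΔUNG with ATRi.

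Other genes of the pathway were read from 60 genes in 5 lists, chosen with earlier results of these data known. Of the 60, 48 were in the table and 38 passed the filter. With ATRi, 10 of these 38 were higher and 6 lower in the Cas9 control, against 16.8% of all genes in each direction, and 9 were higher and 5 lower in ΔUNG, against 16.5% and 19.4%. The median change of all genes was −0.01 and −0.02. Among the genes counted as higher in both lines, Il11 and Bcl3 passed the filter through their ATRi libraries, which favoured their calls. Against the Cas9 control, 2 of the 38 were higher and 1 lower in ΔUNG with DMSO, 4 and 2 in ΔUNG_2 with DMSO, and 1 and 1 in ΔUNG with ATRi; over all genes 8.72%, 8.20% and 6.14% were called. No pathway gene differed in its ATRi response between ΔUNG and the Cas9 control by limma or by limma-voom; at an unadjusted p under 0.05 there were 6 STAT3 targets and 2 inhibitors.

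Among the other ligands, 1 of the list passed the filter, Il11, and it rose with ATRi in both lines. Il11, a cytokine that signals through gp130, was at 0.134 to 0.380 FPKM with DMSO and 1.97 to 4.54 with ATRi, the highest value being that of ΔUNG_2 (a change of 2.93 there, untested). The treatments did not overlap, as for Lif. With DMSO its values rest on 5 to 14 fragments a library. Il11 rose by 1.62 ± 0.15 in the Cas9 control (limma, adjusted p = 7.56e-05) and by 2.07 ± 0.15 in ΔUNG (adjusted p = 1.84e-05). Over the settings its change ran from 1.19 to 2.64 in the Cas9 control and from 1.55 to 3.26 in ΔUNG, so its size is uncertain. Like Lif, Il11 passed the filter only through its ATRi libraries. Clcf1, another cytokine of the family, was too low to be tested (0.116 to 0.455 FPKM with DMSO, 0.600 to 1.07 with ATRi). Without the filter it was higher by limma with ATRi in the Cas9 control (0.76, adjusted p = 0.00549) and in ΔUNG (0.90, adjusted p = 0.00243). Its DMSO values rest on 8 to 30 fragments a library, and no other setting was tried for it. Il6, the founder of the family, reached at most 0.135 FPKM in any library.

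Of the other receptors, 2 were tested, and neither showed a change that passed. Cntfr, the receptor for ciliary neurotrophic factor, was abundant at 37.5 to 52.4 FPKM over all libraries. Il11ra1, the receptor subunit that binds interleukin-11, was at 5.11 to 6.69 FPKM with DMSO and 6.58 to 7.96 with ATRi. With ATRi, 0 of these 2 tested receptors were called by limma in the Cas9 control or ΔUNG, as at an unadjusted p under 0.05 and by limma-voom. Il6ra, the receptor for interleukin-6, was too low to be tested, at 0.0441 to 0.830 FPKM. Without the filter Il6ra was higher by limma with ATRi in the Cas9 control (0.68, adjusted p = 0.00965). With DMSO it was then higher in ΔUNG (0.67, 0.0322) and ΔUNG_2 (0.69, 0.0282) than in the Cas9 control. All of these comparisons share the 2 Cas9 control libraries with DMSO, which held only 24 and 7 Il6ra fragments. They are thus not separate results, and no other setting or left-out library was tried for Il6ra.

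Of 8 kinases, STATs and adaptors, 2 fell, beside 16.8% of all genes in the Cas9 control and 19.4% in ΔUNG, and 0 rose with ATRi in each line by limma (2 also by limma-voom in each, and 2 at an unadjusted p under 0.05 in the Cas9 control and 4 in ΔUNG). The median of the list was −0.10 in the Cas9 control and −0.05 in ΔUNG. Stat5b, a relative of Stat3, fell by 0.50 on the log2 scale in the Cas9 control (adjusted p = 0.00406) and by 0.49 in ΔUNG (adjusted p = 0.00410). Jak1, the Janus kinase that gp130 chiefly uses, fell by 0.28 in the Cas9 control (adjusted p = 0.0171) and by 0.24 in ΔUNG (0.0283). The Jak1 calls were lost on rescaling to the same FPKM sum (0.139 and 0.219). In the Cas9 control the call was also lost without DMSO replicate 2 (0.117) or ATRi replicate 2 (0.0925). In ΔUNG it was lost with only the groups compared (0.0773) and without DMSO replicate 1 (0.0658), DMSO replicate 2 (0.0987) or ATRi replicate 1 (0.158).

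Of the 11 tested inhibitors, 2 rose and 1 fell with ATRi in the Cas9 control and 1 rose and 1 fell in ΔUNG (median 0.04 and −0.12), where 33.6% and 35.8% of all genes were called. In the Cas9 control Ptpn6, the phosphatase SHP-1, and Socs5 rose with ATRi (0.35, adjusted p = 0.0160, and 0.31, 0.0398) and Socs4 fell by 0.47 (0.00867). In ΔUNG Socs5 rose (0.33, adjusted p = 0.0293) and Socs7 fell by 0.27 (0.0497). With DMSO, Ptpn6 was higher in ΔUNG than in the Cas9 control (0.75 ± 0.09, adjusted p = 0.00134) and Socs6 was higher in ΔUNG_2 (0.41 ± 0.10, adjusted p = 0.0318). With ATRi no inhibitor differed between these lines by limma or limma-voom, and 2 did at an unadjusted p under 0.05.

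Of these calls, that of Ptpn6 between the lines held in 21 of 21 settings, and each of the others was lost without at least 1 library. In the Cas9 control, leaving out DMSO replicate 1 (adjusted p = 0.0742) or 2 (0.0685) or ATRi replicate 2 (0.0806) ended the call of Ptpn6, and leaving out DMSO replicate 2 (0.0610) or ATRi replicate 1 (0.0512) that of Socs4. Socs5 in the Cas9 control was lost without any of the 4 libraries compared or either ΔUNG_2 DMSO library (0.0572 to 0.199), and in ΔUNG without DMSO replicate 2 (0.143) or ATRi replicate 2 (0.184). Socs7 was lost without any of 7 libraries, namely ΔUNG DMSO replicate 1, either ΔUNG ATRi library or any DMSO library of the other lines (0.0658 to 0.250). Socs6 was lost without replicate 1 of the Cas9 control with DMSO (0.209) or ΔUNG_2 DMSO replicate 1 (0.104) or 2 (0.210). Scaling all libraries to a common sum also ended the calls of Ptpn6 with ATRi (0.238), Socs5 (0.361 in the Cas9 control and 0.273 in ΔUNG), Socs7 (0.173) and Socs6 (0.449), and Ptpn6 with ATRi was also lost with limma-voom (0.0803) and with only the groups compared (0.0517).

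STAT3 targets included several genes that rose by more than 1 on the log2 scale in both lines. Of 16 tested, 7 rose and 3 fell with ATRi in the Cas9 control, and 7 rose and 2 fell in ΔUNG; the median of the list was 0.15 and 0.21. Over all genes, 16.8% rose and 16.8% fell in the Cas9 control, and 16.5% rose and 19.4% fell in ΔUNG. The list was chosen with earlier results of these data known, so its counts are descriptions, and STAT3 activity was not tested. Fos, a subunit of AP-1, was at 1.06 to 3.08 FPKM over the DMSO libraries and 9.68 to 11.7 over the ATRi libraries. It rose by 1.72 ± 0.18 in the Cas9 control (adjusted p = 0.000127) and 2.35 ± 0.18 in ΔUNG (1.99e-05).

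Junb, another AP-1 subunit, was at 4.93 to 7.71 FPKM with DMSO and 19.3 to 31.8 with ATRi. It rose by 1.83 ± 0.21 in the Cas9 control (limma, adjusted p = 0.000187) and by 1.97 ± 0.21 in ΔUNG (9.71e-05). Ccnd1, which encodes cyclin D1, was at 26.9 to 37.2 FPKM with DMSO and 95.2 to 124 with ATRi, a rise of 1.44 ± 0.07 in the Cas9 control (adjusted p = 3.95e-06) and 1.74 ± 0.07 in ΔUNG (1.38e-06). Myc, the growth regulator, rose by 0.93 ± 0.06 and 0.76 ± 0.06 (adjusted p = 1.37e-05 and 2.81e-05).

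Bcl2l1, which encodes the survival protein BCL-XL, rose by 0.70 ± 0.10 in the Cas9 control and 1.06 ± 0.10 in ΔUNG (adjusted p = 0.000645 and 5.03e-05). Birc5, which encodes survivin and serves cell division, fell in both lines, with changes of −0.71 ± 0.10 in the Cas9 control (adjusted p = 0.000663) and −1.12 ± 0.10 in ΔUNG (4.16e-05); its levels were 34.1 to 40.4 FPKM with DMSO and 15.5 to 24.0 with ATRi. Pim1, a kinase gene, was at 1.84 to 3.27 FPKM with DMSO and 1.59 to 2.42 with ATRi, and its change in ΔUNG was −0.37 ± 0.14 (adjusted p = 0.0598). Zfp36, which encodes an RNA-binding protein that destabilises cytokine mRNAs, rose by 1.42 ± 0.17 and 1.28 ± 0.17 (adjusted p = 0.000322 and 0.000478). Bcl3, a nuclear IκB family protein gene, rose by 0.89 ± 0.22 and 0.75 ± 0.22 (0.0129 and 0.0255). Its group means with DMSO were 0.539 FPKM in the Cas9 control, 0.279 in ΔUNG and 0.184 in ΔUNG_2. It thus passed the filter through its ATRi libraries, and it counts among the STAT3 targets that rose in both lines. The Bcl3 call was lost in the Cas9 control without DMSO replicate 1 (0.0922) or ATRi replicate 2 (0.0862), and in ΔUNG without any of its 4 libraries (0.0635 to 0.113). Vegfa fell in both lines, with changes of −0.51 ± 0.12 in the Cas9 control (limma, adjusted p = 0.00887) and −1.03 ± 0.12 in ΔUNG (0.000155). Cebpb fell in the Cas9 control (−0.94 ± 0.27, 0.0248) and was not called in ΔUNG (−0.54 ± 0.27, 0.145). The Vegfa call held in 19 of 21 settings in the Cas9 control and 21 of 21 in ΔUNG. That of Cebpb in the Cas9 control held in 16 of 21. Bcl2l1, Zfp36, Bcl3, Pim1, Vegfa and Cebpb were named after their values were seen. Calls for Fos, Junb, Ccnd1, Myc, Bcl2l1, Zfp36 and Birc5 with ATRi held in 21 of 21 settings in both lines.

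**Figure D3:**
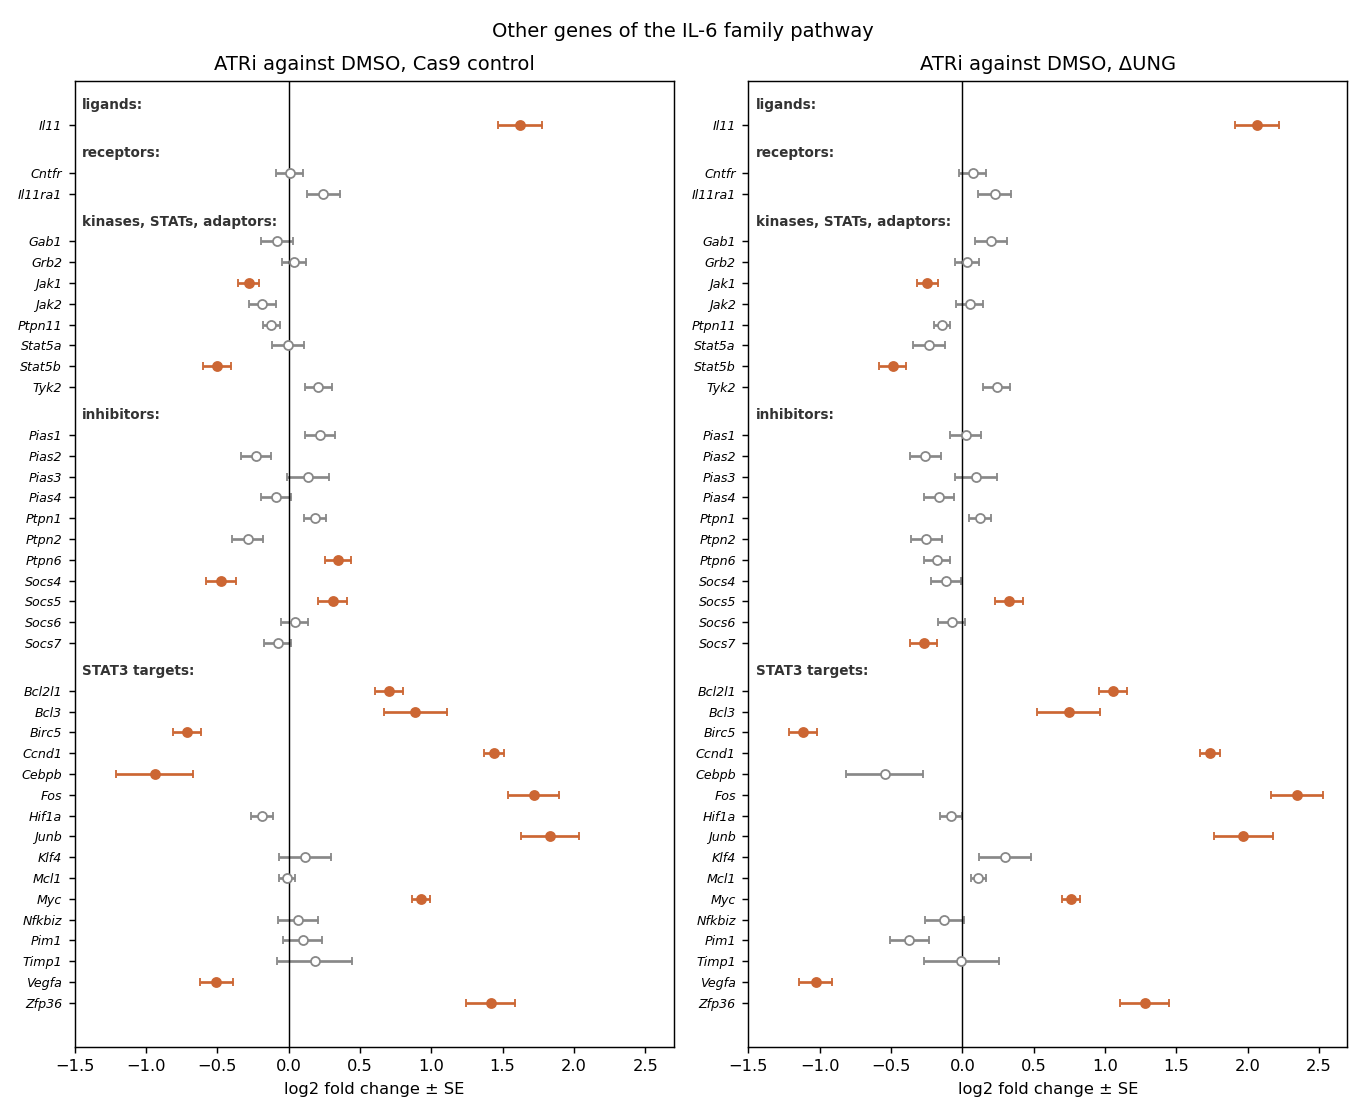
Change with ATRi on the log2(FPKM + 0.5) scale (x axis, ± 1 SE) of the 38 tested pathway genes (y axis, by list) in the Cas9 control (left) and ΔUNG (right). Filled orange points passed the limma test at an adjusted p of 0.05 and open grey points did not; the ligand Il11 lies at 1.62 and 2.07, and the 2 receptors between 0.01 and 0.24.

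Between the lines with DMSO, Ccnd1 was lower than in the Cas9 control in ΔUNG (−0.32 ± 0.07, adjusted p = 0.0225) and in ΔUNG_2 (−0.43 ± 0.07, 0.00653). Hif1a, the oxygen-regulated transcription factor, was higher in both (0.35 ± 0.08, 0.0245, and 0.31 ± 0.08, 0.0416). In ΔUNG_2 Fos was also lower (−0.99 ± 0.18, 0.0102) and Myc (0.35 ± 0.06, 0.00987) and Pim1 (0.53 ± 0.14, 0.0452) higher. With ATRi, Hif1a was higher in ΔUNG (0.46 ± 0.08, 0.0103) and Birc5 lower (−0.44 ± 0.10, 0.0324).

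Each of these calls between the lines was lost without at least 1 library. For Ccnd1 in ΔUNG these were DMSO replicates of the Cas9 control, 1 (0.1001) or 2 (0.136), or DMSO replicate 2 of ΔUNG (0.0982), and in ΔUNG_2 replicate 2 of the Cas9 control (0.0566) or ΔUNG_2 DMSO replicate 1 (0.0517) or 2 (0.0630). Hif1a in ΔUNG was lost with DMSO without Cas9 control replicate 1 (0.178) or ΔUNG replicate 1 (0.0735) or 2 (0.0954), and with ATRi without ΔUNG replicate 2 (0.0906). Hif1a in ΔUNG_2 was lost without any of the 6 DMSO libraries (0.0510 to 0.257). Fos was lost without DMSO replicate 2 of the Cas9 control (0.0795) or ΔUNG_2 DMSO replicate 1 (0.0782), and Myc without any of the 4 libraries compared (0.0537 to 0.103). Birc5 was lost without either ATRi library of the Cas9 control, ΔUNG ATRi replicate 2 or any DMSO library of the Cas9 control or ΔUNG_2 (0.0558 to 0.202). Pim1 held in 9 of 21 settings and was lost without either DMSO library of the Cas9 control or ΔUNG_2 or either ATRi library of ΔUNG (0.0637 to 0.260), with the replicate block (0.0646), with limma-voom (0.0874) and with only the groups compared (0.0590). Rescaling to the same FPKM sum ended the calls of Ccnd1 in ΔUNG (0.0781), Myc (0.438), Birc5 (0.0707), Pim1 (0.291) and Hif1a (0.295 to 0.587).

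The profile of Lif over the 11 libraries was shared by many genes. By Pearson's r of log2(FPKM + 0.5), over 9463 genes whose mean reached 1 FPKM, the 6 most like it were Snap47, Ehd4, Ccnd1, Hist1h2bc, Cdkn1a and Tm4sf1 (r from 0.990 to 0.991), and each of them rose in both tested lines. The libraries fall into 2 treatment sets, which any gene that rises with ATRi follows, and 717 genes had an r over 0.9. The rise of the 6 genes thus comes with their selection by r, which also used the ΔUNG_2 libraries. Cdkn1a, which encodes the cell cycle inhibitor p21, was at 49.7 to 60.9 FPKM with DMSO and 187 to 242 with ATRi. Tm4sf1, a membrane protein of the tetraspanin-like family, was at 11.7 to 14.6 and 38.5 to 42.6 FPKM. Hist1h2bc, a histone H2B gene, was at 7.40 to 11.6 and 45.7 to 57.7 FPKM, with the limit that near-identical histone copies can share reads. Ehd4, which serves endosome traffic, and Snap47, a SNARE protein, had smaller changes (0.88 and 0.59 in the Cas9 control, 0.79 and 0.56 in ΔUNG).

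**Figure D4:**
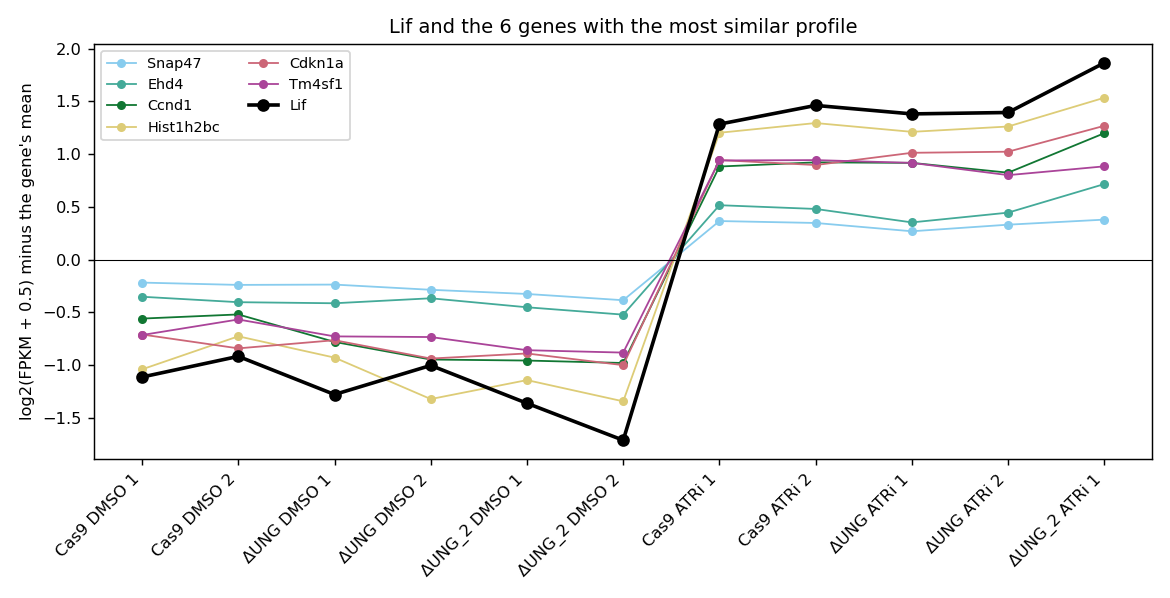
log2(FPKM + 0.5) minus the gene's mean over the 11 libraries (y axis) for Lif in black and the 6 genes most like it, by library (x axis, DMSO libraries on the left and ATRi libraries on the right); the lines join points of 1 gene and carry no order. All 7 genes lie below their mean in the 6 DMSO libraries and above it in the 5 ATRi libraries, a pattern that choosing the 6 by r favours.

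The genes most like Socs3 were Cox19 (r = 0.941), Pqbp1 (0.901) and Stard10 (0.883), none of which passed the test with ATRi in the Cas9 control or ΔUNG (adjusted p from 0.0694 to 0.300). Over the same libraries the r of Lif was −0.84 with Lifr, 0.72 with Stat3, 0.70 with Il6st, 0.57 with Socs3 and 0.49 with Osmr. These values share the split by treatment, and no p is given.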

How the data were processed

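RNA-seq values of 14528 listed genes in 11 libraries were used as deposited by the authors: FPKM, fragments scaled by gene length and library size. Per the labels' protocols, Novogene prepared and sequenced the libraries. HISAT2, an aligner, is named in the submitters' processing notes; for its version, counter, annotation and build, each is not given in the sources used here. The deposited read table gives clean reads as counts (45692790 to 74973328 per library) and Q30 as a percent (92.4% to 94.0%); 1 of its rows belongs to no sample analysed here and was not used. FPKM times gene length came out as whole fragments within 0.01 for 100% of values.

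Groups came from the sample titles. limma 3.58.1 (R 4.3.3) was run on log2(FPKM + 0.5) for 11323 genes whose mean reached 0.5 FPKM, with 1 mean per group over all 11 libraries (5 residual degrees of freedom), a mean-variance trend, two-sided tests, Benjamini-Hochberg adjustment and a threshold of 0.05. Alternatives were other pseudocounts, filters and scalings, only the groups compared, a replicate block and leaving out each library; limma-voom on the recovered fragments was added after seeing the data. The rule for naming pathway genes was up to 4 per list and comparison with the smallest adjusted p. Genes that met it in 1 comparison were also given in others. Outside it, Bcl2l1, Zfp36, Bcl3, Pim1, Vegfa and Cebpb were added after their values were seen. Clcf1, Il6, Il6ra, Il11ra1 and Cntfr were also named without meeting it. Genes said to be like Lif have the largest r, with predicted genes left out. The 6 genes, the lists and the motifs were chosen with earlier results of these data known. The procedure was also run on simulated fragments with a fixed spread and far fewer changed genes than were called with ATRi here. That run does not show how well the calls hold in these data. Some pathway genes are not reported here, and the counts leave them out. Errors of fold changes are standard errors. A count of 0 allows up to 3 fragments, which for Lif is 0.0242 to 0.0405 FPKM (counting error only). Replicates differed by more than counting noise (chi-square per degree of freedom 4.73 to 27.6). Python 3.11.15 with matplotlib 3.10.9 drew the figures.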

Additional observations from a re-analysis of the deposited data

How the results depend on the processing

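Lif was called higher with ATRi in 21 of 21 settings in both tested lines, and Il11 in 20 of 20. The change of Lif was 1.90 to 3.35 in the Cas9 control (limma, adjusted p up to 0.000699) and 1.99 to 3.68 in ΔUNG (up to 0.000359). Lif was chosen by its rise in ΔUNG_2, and both genes passed the filter only through their ATRi libraries. The settings also reuse the same libraries, so these counts describe the processing and are no support for the rise. Rescaling to the same FPKM sum lowered the genes called to 2005 (Cas9 control) and 2320 (ΔUNG) with ATRi, 327 (ΔUNG) and 381 (ΔUNG_2) with DMSO and 284 for ΔUNG against the Cas9 control with ATRi, from 3805, 4059, 987, 928 and 695. With it 1 of the 6 genes was called in ΔUNG with ATRi, and pathway genes called fell from 6 to 2 in ΔUNG_2 with DMSO and from 2 to 0 for ΔUNG against the Cas9 control with ATRi. With only the groups compared, 385 genes and 1 pathway gene (from 3) were called for ΔUNG with DMSO, and 273 and 0 for ΔUNG against the Cas9 control with ATRi. limma-voom called 1321 genes there, 2 of the 6 genes in the Cas9 control with ATRi and 2 for ΔUNG with DMSO; median ratios gave 1. The cause was not tested.

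The difference in response called 2 genes, but 7 at a pseudocount of 0.1, 10 at 1, 1 with no filter, 7 with a filter of 2 FPKM, 16 after rescaling to the same sum, 0 with only the groups compared, 4 with the replicate block and 73 with limma-voom. The replicate block changed no call of the 6 genes and ended those of Socs5 in the Cas9 control (0.0562), Socs7 (0.0659), Hif1a (0.0566) and Pim1 (0.0646) in ΔUNG_2 and Birc5 between the lines (0.0535), the last leaving 1 pathway gene called for ΔUNG with ATRi; replicate numbers were shared only as names (r of replicate differences between groups −0.124 to 0.0436), so the libraries were not treated as paired.

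Leaving out each library gave, in the order Cas9 control and ΔUNG with ATRi, ΔUNG and ΔUNG_2 with DMSO, ΔUNG against the Cas9 control with ATRi and the difference, 2197 to 3938, 2752 to 4229, 370 to 1099, 289 to 986, 225 to 747 and 0 to 7 genes. It gave 1 to 2, 1 to 3, 0, 0 to 1, 0 and 0 of the 6 genes, and 10 to 17, 11 to 14, 1 to 4, 0 to 7, 0 to 2 and 0 pathway genes.

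Values near 0 that were not called changed sign. After rescaling to the same sum, Socs3 with DMSO was −0.0745 in ΔUNG and −0.0326 in ΔUNG_2, and Lif in ΔUNG against the Cas9 control with ATRi was −0.0728 (−0.00325 with limma-voom). Leaving out each library gave log2 changes that crossed 0. With ATRi in the Cas9 control, Osmr ran from −0.225 to 0.0230. In ΔUNG with DMSO, Lif ran from −0.264 to 0.0121, Socs3 from −0.130 to 0.190 and Il6st from −0.0783 to 0.0329. In ΔUNG_2 with DMSO, Osmr ran from −0.0297 to 0.0110, Socs3 from −0.0907 to 0.254 and Il6st from −0.0932 to 0.0179. For ΔUNG against the Cas9 control with ATRi, Lif ran from −0.0737 to 0.104, Socs3 from −0.101 to 0.407 and Il6st from −0.206 to 0.0325. In the difference, Socs3 ran from −0.131 to 0.378 and Il6st from −0.183 to 0.0552.

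The planned edgeR quasi-likelihood test was not run. The deposited unit is FPKM, and limma-voom on the fragments recovered from it was run instead. Groups of 2 libraries, and 1 for ΔUNG_2 with ATRi, limit every comparison. With DMSO, Lif rests on 5 to 38 fragments and Il11 on 5 to 14, so their folds are uncertain. Promoter matches and gene neighbours are descriptions only.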

Other observations

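Genes beside Lif were read after their values were seen. Within 150000 bases of Lif on chromosome 11, 7 other genes were listed and 6 tested. With ATRi, 3 were higher in the Cas9 control and 3 higher and 1 lower in ΔUNG; over all genes, 16.8% were higher in the Cas9 control, and 16.5% higher and 19.4% lower in ΔUNG. Tbc1d10a changed by 0.52 ± 0.10 in the Cas9 control (limma, adjusted p = 0.00310) and 0.65 ± 0.10 in ΔUNG (0.000777), and Castor1, a sensor of arginine for mTORC1, by 0.63 ± 0.12 (0.00318) and 0.55 ± 0.12 (0.00571). The other calls of a higher level were near the threshold and in 1 line each. Ccdc157 was called in the Cas9 control (0.43, adjusted p = 0.0487) and not in ΔUNG (0.135). Rnf215 was called in ΔUNG (0.45, 0.0468) and not in the Cas9 control (0.0560). Sf3a1 was the gene lower in ΔUNG (−0.25, 0.0162). None of these neighbours was put through the other settings. The changes of Lif were 2.39 and 2.53. Beside Osmr on chromosome 15, Rictor, a subunit of mTORC2, was higher with ATRi in ΔUNG (0.32 ± 0.10, 0.0332) and its change in the Cas9 control was −0.04 ± 0.10 (0.801).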
